A study of Drosophila melanogaster with 8 samples.

Results

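The response of the Bully line of Drosophila melanogaster to rearing temperature was read from RNA sequencing of whole adult heads. The comparison took the 2 libraries of Bully flies raised at 25C against the 2 of Bully flies raised at 19C, 4 of the 8 libraries in the series. The other 4 came from Canton-S flies (CantonS), the common laboratory wild type, likewise raised at 25C or 19C with 2 libraries each. Bully is a hyper-aggressive line derived from Canton-S. All flies were socially naive adults, 6 days old; about 90 heads were pooled in each sample. The sex of the flies was not given in the sources used here. A whole head mixes brain, eyes, antennae, mouthparts, muscle and the fat body of the head capsule. The letters a and b tell apart the 2 libraries of a group and carry no meaning beyond that, and every group mean has n = 2.

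Flies do not regulate their body temperature, so the temperature at which they are raised sets the pace of development and alters adult size, metabolism and stress tolerance. Warmth engages chaperones, the proteins that fold or refold other proteins. The fat body is the fly counterpart of liver and adipose tissue. It makes storage proteins, lipid carriers, antimicrobial peptides and peptides that signal feeding state to the brain, and insulin-like peptides from brain neurons act on it. The eye makes up much of the head and supplies the most abundant transcripts.

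Levels are RPKM, the reads in a gene scaled to the length of the gene and to the size of its library. Differences are 25C minus 19C on the scale of log2(RPKM + 0.5), which understates the change of low genes. Genes whose RPKM averaged 1 or more across all 8 libraries, 8480 in number, entered the test in limma, and adjusted p-values follow Benjamini and Hochberg over all of them. A gene passed at an adjusted p below 0.05. The effective sizes of the Bully libraries, inferred from the RPKM values, were 114.8, 79.9, 99.2 and 84.3 M reads (M, mega) for 19C a, 19C b, 25C a and 25C b.

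The difference between temperatures was small across the Bully transcriptome. Of the genes tested, 3 passed (0.0354%), 1 higher at 25C (0.0118%) and 2 lower (0.0236%). At an unadjusted p below 0.05 there were 729 genes (8.60%), of which 483 were higher at 25C (5.70%) and 246 lower (2.90%). Both libraries at 25C lay above both at 19C in 2214 genes (26.1%) and below both in 1320 (15.6%). The median absolute difference was 0.10, and 17 genes exceeded a log2 difference of 1 while 11 lay below -1. The same measures in CantonS, as deposited with a median of -0.11, were 0.25, 35 and 103 genes. The 2 libraries of a group also differed more in CantonS. Their median absolute difference was 0.23 at 19C and 0.16 at 25C, beside 0.08 and 0.13 in Bully. Across genes, the log2 values of the Bully 19C libraries correlated at 0.993 and those of the 25C libraries at 0.984, and libraries of different temperatures correlated at 0.984 to 0.990. Library 25C a was closer to 19C b (0.990) than to 25C b (0.984), so the temperatures did not separate the 4 libraries as wholes.

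CG11597, a protein-coding gene on chromosome arm 3L, was the gene that rose. It stood at 5.14 and 5.76 RPKM at 19C and at 17.65 and 19.69 RPKM at 25C, a 3.43-fold difference (log2 1.69, SE 0.10, adjusted p = 0.0348). Its exons overlap those of CG5946 on the same strand in the reference annotation. CG5946 was at 90.50 and 88.41 RPKM at 19C and at 112.6 and 129.3 RPKM at 25C (0.43, SE 0.11, adjusted p = 0.524), and reads from the shared stretch could belong to either gene. In CantonS, CG11597 lay the other way, at 8.07 and 16.90 RPKM at 19C and 4.53 and 6.28 RPKM at 25C (-1.07, SE 0.29, adjusted p = 0.0601). The difference between the lines' responses was 2.75 and did not pass (adjusted p = 0.0921).

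The small nucleolar RNA snoRNA:Psi28S-2444, named for a pseudouridine it guides in 28S ribosomal RNA, fell. It was at 7.91 and 7.61 RPKM in the 19C libraries and at 0.62 and 0.18 RPKM in the 25C libraries (log2 -3.24, SE 0.23, adjusted p = 0.0409). These values were worth 118, 79, 8 and 2 reads, since the gene is 130 bases long. CantonS held 8 and 296 reads of it at 19C and 4 and 7 at 25C, so that 1 of its 19C libraries was as low as those raised at 25C. Of the 73 small RNA genes tested, 12 were lower in both 25C libraries, 6 were higher in both and 55 overlapped. The share lower was close to the 15.6% over all genes tested, and the share higher was well below the 26.1%.

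The second gene to fall was fit, a secreted fat body peptide that signals protein satiety and is made mostly in females. It stood at 53.2 and 50.1 RPKM at 19C and at 21.8 and 19.8 RPKM at 25C, 2.49-fold lower (log2 -1.29, SE 0.10, adjusted p = 0.0471). The fit libraries did not overlap between temperatures in Bully, whereas in CantonS they did (11.52 and 22.05 RPKM at 19C, 12.36 and 5.25 RPKM at 25C). The male-specific RNA roX1 overlapped between temperatures, at 136.2 and 120.9 RPKM at 19C and 123.2 and 159.5 RPKM at 25C. With the spread taken from all 8 libraries, none of the 3 passed (adjusted p = 0.378 for CG11597, 0.9998 for fit and 0.9998 for snoRNA:Psi28S-2444). Without Bully 19C a or 19C b the call of fit was lost (adjusted p = 0.156 and 0.126).

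**Figure D1:**
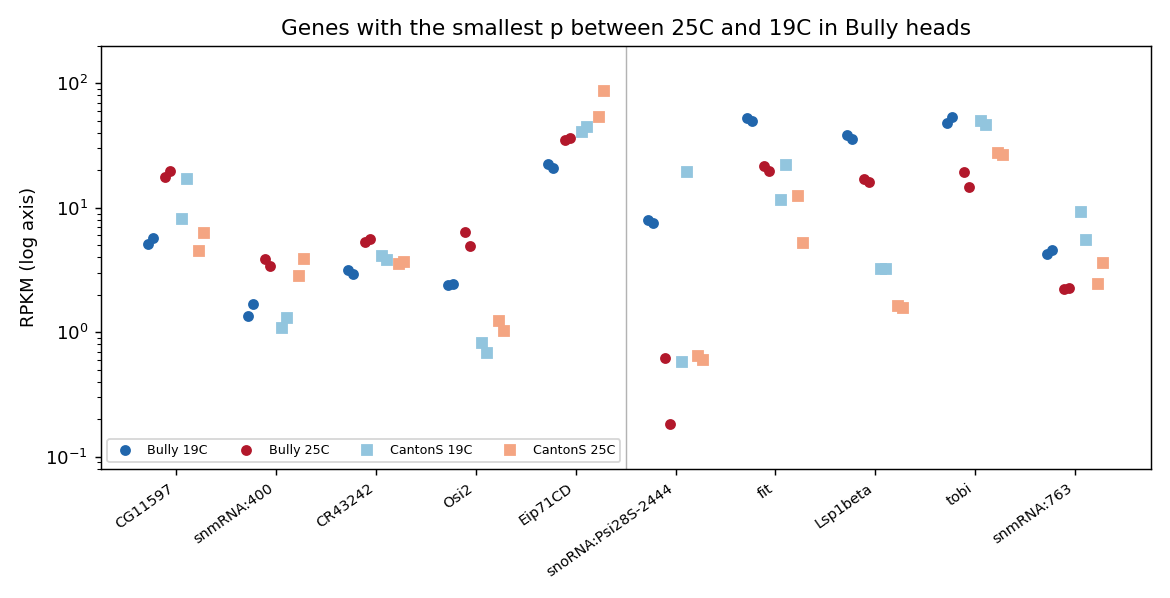
RPKM on a log axis in each library for the 5 genes of smallest p in each direction in Bully, those higher at 25C on the left and those lower on the right; circles are Bully and squares CantonS, blue 19C and red 25C. CG11597 is higher at 25C in Bully and lower in CantonS, while fit, Lsp1beta and tobi are lower at 25C in Bully by 2.49, 2.24 and 2.97-fold.

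The genes next in order of p did not pass, and their values were as follows. Among those higher at 25C, Eip71CD, a methionine sulfoxide reductase that repairs oxidised proteins, was at 22.54 and 20.70 RPKM at 19C and 34.88 and 36.21 RPKM at 25C (adjusted p = 0.231). Osi2, of the Osiris family of insect proteins, was at 2.40 and 2.46 RPKM and then 6.37 and 4.93 RPKM (adjusted p = 0.143). The noncoding RNA CR43242 went from 3.19 and 2.92 RPKM to 5.35 and 5.64 RPKM (adjusted p = 0.131). A small RNA gene within the exons of Mur2B had only 8, 7, 20 and 15 reads in 19C a, 19C b, 25C a and 25C b (adjusted p = 0.131). Among those lower at 25C, a small RNA gene within CG8051 had 46, 35, 21 and 18 reads in the same order (adjusted p = 0.119). None of these groups overlapped in Bully. In CantonS, Eip71CD, the small RNA in Mur2B and Osi2 were also higher in both 25C libraries, whereas CR43242 was lower in both.

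Among the lists with at least 5 tested members, fat body transcripts had the lowest median difference. Of 20 listed storage, yolk, feeding and sex-linked fat body genes, 13 were tested and 1, fit, passed. Both 25C libraries were below both 19C libraries in 7 of the 13 (53.8%, beside 15.6% over all genes) and above in 2 (15.4%, beside 26.1%), and the median difference was -0.65, beside 0.02 over all genes tested. Leaving out 1 Bully library at a time gave medians from -0.88 to -0.42. The list was chosen with earlier results of these data known, and its direction is a description. In a whole head, fewer fat body cells and less RNA per cell cannot be told apart.

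Storage hexamers, amino acid reserves built up by the larva, were among these 7. Lsp2 was at 366 and 398 RPKM at 19C and at 159 and 119 RPKM at 25C, 2.75-fold lower (log2 -1.47, SE 0.17, adjusted p = 0.131). Lsp1beta was at 38.5 and 35.8 RPKM and then 17.05 and 16.10 RPKM, 2.24-fold lower (-1.14, SE 0.09, adjusted p = 0.0507). The 2 libraries of each temperature lay close together in Lsp1beta, and it missed the threshold narrowly. In CantonS Lsp1beta was less abundant than in Bully and again lower at 25C, at 3.21 and 3.23 RPKM against 1.63 and 1.56 RPKM (adjusted p = 0.0340). With the spread from all 8 libraries Lsp1beta passed in Bully (adjusted p = 0.0257).

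Feeding-linked genes of the fat body lay the same way. The glucosidase gene tobi, a target of insulin and glucagon-like signals, was at 48.0 and 53.4 RPKM at 19C and at 19.4 and 14.8 RPKM at 25C, 2.97-fold lower (log2 -1.55, SE 0.15, adjusted p = 0.0913). In CantonS tobi went from 50.2 and 46.6 RPKM to 27.75 and 26.55 RPKM (adjusted p = 0.0411), and with the spread from all 8 libraries it passed in Bully (adjusted p = 0.0257). The takeout gene to, a secreted carrier linked to feeding, was at 197 and 177 RPKM at 19C but at 54.8 and 120 RPKM at 25C, so its 25C libraries lay apart (adjusted p = 0.524). The odorant-binding gene Obp99b, which the fat body also expresses, was at 197 and 195 RPKM and then 106 and 147 RPKM (adjusted p = 0.524). Cyp4d21, a sex-specific P450 of the fat body, was at 46.65 and 53.55 RPKM and then 25.7 and 33.6 RPKM (adjusted p = 0.4996).

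Not all fat body genes were lower. The yolk protein gene Yp3 was higher at 25C, at 12.6 and 13.2 RPKM against 16.3 and 15.6 RPKM (adjusted p = 0.524), and in CantonS it was lower at 25C (-0.61, adjusted p = 0.0478). The lipid carrier precursor Rfabg overlapped, at 227 and 181 RPKM at 19C and 171 and 184 RPKM at 25C. The summed level of the 9 fat body markers was 821 and 785 RPKM at 19C and 419 and 452 RPKM at 25C, most of it from Lsp2 and to. The same sum was 372 and 447 RPKM in CantonS at 19C and 408 and 329 RPKM at 25C, so that the Bully 19C libraries stood apart in this sum. Of the 7 markers tested, 3 were lower in both Bully 25C libraries (42.9%, beside 15.6% over all genes) and 1 higher (14.3%, beside 26.1%). Their median difference in Bully was -0.19, so the sum does not stand for every marker.

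**Figure D2:**
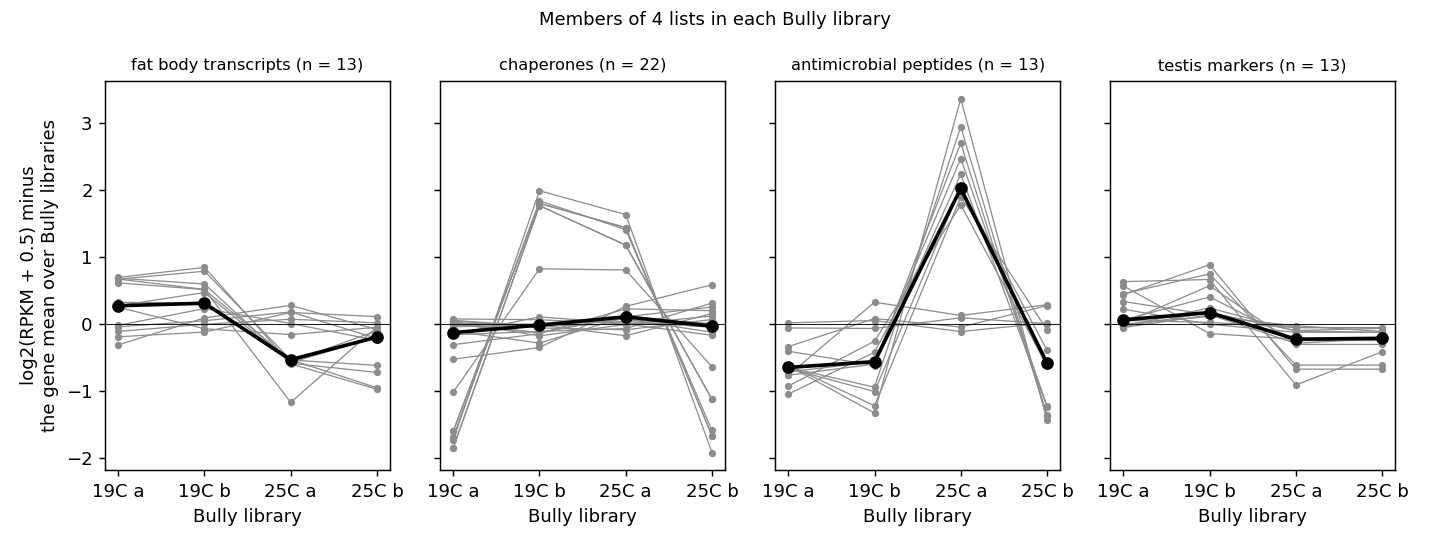
Each grey line is a gene and the black line the median of the list; the vertical axis gives log2(RPKM + 0.5) in each Bully library minus the gene's mean over the 4. Most fat body and testis genes are higher at 19C, chaperones hold a group of heat shock genes that is high in 19C b and 25C a, and antimicrobial peptides are high in 25C a.

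Transcripts of the male germ line were at low levels, and those listed summed to more at 19C than at 25C. All 13 testis markers lay below the filter on low values, so none was tested. Their summed level was 4.23 and 5.15 RPKM in the Bully 19C libraries, 0.415 and 0.752 RPKM in the Bully 25C libraries, and 0.0715 to 0.868 RPKM in CantonS. The highest was Mst87F, a sperm tail protein gene, at 1.89 and 1.94 RPKM at 19C and 0.32 and 0.66 RPKM at 25C. Mst84Db had 26 and 26 reads at 19C and 0 and 0 at 25C, at least 16.3-fold higher against a floor of 3 reads over the group. That floor covers counting error only.

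Other low genes lay the same way. Genes were counted among the 6760 below the filter that reached 0.1 RPKM in both Bully libraries of 1 temperature. They also had to be at least 4 times as high there as in either library of the other temperature. This held for 96 genes at 19C and 10 at 25C. The 96 were not sorted by tissue and also held small nucleolar RNA and microRNA genes. Among these, snoRNA:185 was at 1.11 and 0.68 RPKM and mir-277 at 0.44 and 0.50 RPKM at 19C. Chosen here after their values were seen, the testis thioredoxin TrxT was at 0.84 and 1.58 RPKM against 0.19 and 0.20 RPKM, and the sperm aminopeptidase S-Lap2 at 0.60 and 0.73 RPKM against 0.04 and 0.05 RPKM. The ribosomal protein paralog RpS5b, enriched in germ cells, was at 1.25 and 2.34 RPKM against 0.22 and 0.15 RPKM. Summed accessory gland markers were at 4.57 and 3.99 RPKM at 19C and 3.46 and 3.65 RPKM at 25C, and ovary follicle markers did not exceed 0.803 RPKM. The part of these transcripts in the fat body differences was not tested.

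No gene of the insulin pathway passed among 17 tested. Both 25C libraries were lower in 7 (41.2%, beside 15.6% over all genes) and higher in 1 (5.88%, beside 26.1%). The median was -0.10, and -0.04 without 25C b. The insulin-like peptides of the brain overlapped or barely parted. Ilp2 was at 59.9 and 51.2 RPKM at 19C and 54.95 and 49.84 RPKM at 25C, Ilp3 at 11.71 and 11.02 and then 12.4 and 10.5 RPKM, and Ilp5 at 7.02 and 7.10 and then 7.36 and 7.37 RPKM. In CantonS each of Ilp2, Ilp3 and Ilp5 was lower at 25C (log2 -1.01, -1.36 and -1.15; adjusted p = 0.0411, 0.0274 and 0.0372). The difference between the lines did not pass for any of the 3 (adjusted p = 0.111, 0.0921 and 0.0921).

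Below insulin signalling, foxo, the transcription factor that insulin holds back, was at 7.28 and 6.91 RPKM at 19C and 5.58 and 5.68 RPKM at 25C (adjusted p = 0.524). Pepck, the gluconeogenic enzyme, was at 264 and 180 RPKM and then 149 and 131 RPKM (adjusted p = 0.527). The hexokinase gene Hex-C was the other way, at 33.1 and 29.0 RPKM and then 38.6 and 40.0 RPKM (adjusted p = 0.527). Among 20 lipid genes none passed. Both 25C libraries were lower in 5 (25%, beside 15.6% over all genes) and higher in 2 (10%, beside 26.1%). The lipase gene dob was at 10.23 and 10.04 RPKM and then 6.62 and 7.73 RPKM (adjusted p = 0.4996). The fatty acid import gene whd, a carnitine palmitoyltransferase, was at 36.6 and 41.1 RPKM and then 30.7 and 25.4 RPKM (adjusted p = 0.524).

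The 3 chaperone genes with the largest test statistics were higher at 25C, and none passed. Hsp83, the fly Hsp90, was at 67.3 and 76.1 RPKM at 19C and at 117 and 146 RPKM at 25C, 1.83-fold higher (log2 0.86, SE 0.14, adjusted p = 0.498). Its Hsp40 partner DnaJ-1 was at 16.9 and 19.0 RPKM and then 24.8 and 24.3 RPKM (adjusted p = 0.4996), and the co-chaperone Hop at 7.065 and 6.175 RPKM and then 8.27 and 9.20 RPKM (adjusted p = 0.524). All 3 were also higher in both 25C libraries of CantonS, by 0.90, 0.71 and 0.72 on the log2 scale. Of the 22 chaperone genes tested, 5 were higher in both 25C libraries (22.7%, beside 26.1% over all genes) and 1 lower (4.55%, beside 15.6%). Their median was 0.04, and -0.01 without 25C a and 0.22 without 19C b, so the list as a whole showed no steady direction.

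The strongly heat-inducible chaperones followed libraries, not temperature. Hsp70Bc was at 2.00 RPKM in 19C a, 32.40 in 19C b, 25.21 in 25C a and 1.69 in 25C b. Hsp68 was at 3.10, 12.39, 12.24 and 4.18 RPKM in the same order. The small heat shock genes Hsp22, at 2.92, 9.49, 9.49 and 1.28 RPKM, and Hsp26, at 1.93, 6.90, 6.43 and 1.31 RPKM, were high in the same 2 libraries. One library at each temperature was high, so the groups overlapped. The Hsp70 genes are near-identical copies among which reads cannot be divided reliably.

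Of 8 Turandot, metallothionein and cold-linked genes tested, none passed. Both 25C libraries were higher in 4 (50%, beside 26.1% over all genes) and lower in 1 (12.5%, beside 15.6%). The median of the 8 was 0.23, and 0.11 to 0.48 with 1 Bully library left out. The stress-induced secreted peptide TotA was at 118 and 175 RPKM at 19C and 255 and 208 RPKM at 25C (adjusted p = 0.527), and smp-30, also called Dca for cold acclimation, at 22.3 and 19.9 RPKM and then 31.4 and 26.8 RPKM (adjusted p = 0.524). Frost (Fst), a gene of recovery from cold, had 0, 1, 0 and 0 reads. Only 4 of the 20 listed thermosensory genes were above the filter, and the warmth-sensing channel gene pyx was at 1.46 and 1.84 RPKM and then 2.135 and 1.901 RPKM (adjusted p = 0.638).

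Antimicrobial peptide genes of the Imd pathway were high in 1 library. Dpt was at 1.18 RPKM in 19C a, 0.530 in 19C b, 26.1 in 25C a and 0.455 in 25C b. AttC was at 3.43, 3.87, 35.2 and 2.27 RPKM and CecA1 at 1.89, 2.18, 25.8 and 1.08 RPKM in that order. The median difference of the 13 antimicrobial peptide genes tested was 1.26, and -0.02 without 25C a. In CantonS too 1 library was high, Dpt being at 17.2 and 2.29 RPKM at 19C and 2.46 and 1.39 RPKM at 25C. Only Dro, Mtk and Def were higher in both 25C libraries (23.1%, beside 26.1% over all genes), and none of the 13 passed. Among 31 recognition and signalling genes of the Toll and Imd pathways, 6 were higher in both 25C libraries (19.4%, beside 26.1%) and 8 lower (25.8%, beside 15.6%).

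Library 25C a stood apart in other genes as well. It was at least 1 log2 unit above all 3 other Bully libraries in 11 genes and below them in 9, against 12 and 4 for 25C b, 2 and 0 for 19C b, and 1 and 1 for 19C a. The 11 held 9 antimicrobial peptide genes, a microRNA gene and desat2, a desaturase of cuticular hydrocarbon synthesis, which was at 0.71, 0.78, 21.7 and 0.17 RPKM. The 9 below the others in 25C a included the more abundant fat body gene to and CG8329. CG8329 was at 356, 304, 146 and 298 RPKM in the order 19C a, 19C b, 25C a and 25C b. Also among the 9 were 3 genes of the antenna, Obp83a, Obp83b and Os-C. Obp83a was at 2.56, 2.57, 0.298 and 3.84 RPKM, Obp83b at 0.740, 0.921, 0.0380 and 0.896 RPKM, and Os-C at 1.91, 2.14, 0.161 and 2.57 RPKM. These genes were chosen after their values were seen. Without 25C a 62 genes passed, and without 25C b 36, with the lone library assumed to vary like the other group; CG11597, fit and snoRNA:Psi28S-2444 passed in both.

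Immune-induced peptides of the Toll pathway formed a separate list. Of 17 tested, none passed. Both 25C libraries were higher in 7 (41.2%, beside 26.1% over all genes) and lower in 1 (5.88%, beside 15.6%). The median was 0.11 in Bully (0.02 with the length trend removed, 0.30 without 19C b). It was -0.97 in CantonS, where 14 were lower in both 25C libraries. CG5791 was at 50.3 and 71.3 RPKM at 19C and 77.98 and 89.25 RPKM at 25C (adjusted p = 0.570), while in CantonS it stood at 330 and 358 RPKM at 19C and 141 and 149 RPKM at 25C. IM18 was at 6.66 and 7.27 RPKM and then 17.76 and 10.65 RPKM in Bully (adjusted p = 0.524). The exons of IM18 overlap those of CG10332 on the same strand in the reference annotation, so reads from the shared stretch could belong to either gene.

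Ribosomal protein genes showed a small shift upwards at 25C that ran through the family. Of 82 tested, 59 were higher in both 25C libraries (72.0%, beside 26.1% over all genes) and 3 lower, although none passed. Their median difference was 0.23, and 0.13 to 0.22 after the length trend of each library was removed, with median-of-ratios rescaling or with quantile normalization. Leaving out 1 Bully library at a time gave 0.17 to 0.28. RpS14b was at 317 and 325 RPKM at 19C and 409 and 479 RPKM at 25C (0.46, SE 0.13, adjusted p = 0.524), and RpL24 at 169 and 179 RPKM and then 223 and 230 RPKM (0.38, SE 0.11, adjusted p = 0.524). In CantonS the family lay the other way, 76 of the 82 being lower in both 25C libraries with a median of -0.66, and of -0.54 to -0.22 under those alternatives. RpS14b there was at 531 and 623 RPKM at 19C and 276 and 359 RPKM at 25C.

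Mitochondrial genes lay the same way as the cytoplasmic ribosome. Of 73 mitochondrial ribosomal protein genes, 38 were higher in both 25C libraries (52.1%, beside 26.1% over all genes) and 1 lower (1.37%, beside 15.6%). Their median was 0.13, and 0.06 with the length trend removed. The gene mRpL49 was at 4.56 and 5.32 RPKM and then 6.93 and 7.45 RPKM (0.50, SE 0.10, adjusted p = 0.4996). Of 51 genes of oxidative phosphorylation, 33 were higher (64.7%) and 3 lower, with a median of 0.12, and of 0.07 with quantile normalization. SdhC, a subunit of succinate dehydrogenase, was at 36.7 and 40.7 RPKM at 19C and 46.3 and 53.7 RPKM at 25C (adjusted p = 0.541). Proteasome genes were higher in 13 of 33 (39.4%) and lower in 1, with a median of 0.07, of 0.03 with the length trend removed and of 0.03 without 19C a. None of these genes passed, and the CantonS medians were -0.51, -0.50 and -0.37. Of 6 histone genes above the filter, both 25C libraries were higher in 3 (50%, beside 26.1% over all genes) and lower in 0 (beside 15.6%). The variant histone gene His3.3A was at 16.1 and 16.4 RPKM and then 21.1 and 22.1 RPKM (adjusted p = 0.4996).

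None of the 7 rhodopsin genes passed. Both 25C libraries were higher in 4 (57.1%, beside 26.1% over all genes) and lower in 1 (14.3%, beside 15.6%). The most abundant transcript of the head, ninaE, which encodes the rhodopsin of the outer photoreceptors, was at 6428 and 5668 RPKM at 19C and 8643 and 8900 RPKM at 25C, 1.45-fold higher (log2 0.54, SE 0.16, adjusted p = 0.525). As the highest gene of every library it has no difference at all under quantile normalization, by construction. Rh6, the green-sensitive rhodopsin of inner photoreceptors, was at 300.7 and 290.5 RPKM and then 387 and 406 RPKM (0.42, SE 0.11, adjusted p = 0.524). The ultraviolet-sensitive pair differed less, Rh4 being at 591 and 531 RPKM and then 726 and 637 RPKM and Rh3 at 210 and 211 RPKM and then 228 and 247 RPKM. Blue-sensitive Rh5 was lower in both 25C libraries, at 108.5 and 102.1 RPKM and then 96.2 and 87.4 RPKM (-0.20, adjusted p = 0.647). Rh2 of the ocelli overlapped, at 151 and 164 RPKM and then 183 and 162 RPKM.

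The machinery behind the rhodopsins lay mostly the same way. Of 33 phototransduction genes tested, 22 were higher (66.7%, beside 26.1% over all genes) and 5 lower (15.2%, beside 15.6%) in both 25C libraries. None passed, and the median was 0.18, or 0.12 with quantile normalization. The ninaA gene, a chaperone that rhodopsin needs to leave the endoplasmic reticulum, was at 71.2 and 65.7 RPKM at 19C and 87.7 and 94.8 RPKM at 25C (adjusted p = 0.524). Retinophilin (rtp) was at 182 and 175 RPKM and then 232 and 270 RPKM (adjusted p = 0.524), and the eye G protein subunit Gbeta76C at 237.5 and 224.6 RPKM and then 295 and 315 RPKM (adjusted p = 0.524). In CantonS ninaA, rtp and Gbeta76C were lower in both 25C libraries, by 0.85, 0.63 and 0.51 on the log2 scale. The summed photoreceptor markers were 11019 and 9709 RPKM at 19C and 14450 and 14087 RPKM at 25C in Bully. Eye pigment genes were even, 3 of 21 being higher (14.3%, beside 26.1% over all genes) and 3 lower (14.3%, beside 15.6%).

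Markers of other cell types, and of midgut, were summed in the same way in Bully. Summed markers ranged from 127 to 140 RPKM for neurons, from 632 to 640 RPKM for glia, from 102 to 125 RPKM for hemocytes, from 867 to 1039 RPKM for muscle and from 117 to 159 RPKM for midgut. The temperatures overlapped in sum for neurons, hemocytes and muscle. The glial sums differed little, at 632.4 and 639.7 RPKM at 19C and 632.0 and 631.8 RPKM at 25C. Midgut sums were lower in both 25C libraries, at 137 and 159 RPKM at 19C and 132 and 117 RPKM at 25C. Most of the midgut sum came from the amylase copies Amy-p and Amy-d, near-identical genes between which reads cannot be divided reliably. Each copy was lower in both 25C libraries and did not pass (adjusted p = 0.552 and 0.570).

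Among genes of neurons and behaviour, none of 41 neuropeptide, 29 biogenic amine, 43 synaptic, 30 ion channel or 24 circadian genes passed. Neuropeptides held 12 that were higher (29.3%) and 5 lower (12.2%) in both 25C libraries, near the 26.1% and 15.6% over all genes. Pdf, the peptide of clock neurons, was at 69.9 and 61.1 RPKM at 19C and 85.3 and 89.7 RPKM at 25C (0.42, SE 0.11, adjusted p = 0.524), and in CantonS it was lower, at 174 and 214 RPKM and then 124 and 138 RPKM. Trissin was at 11.3 and 13.8 RPKM and then 16.6 and 20.1 RPKM, and Nplp3 at 114 and 150 RPKM and then 175 and 224 RPKM. The dopamine and octopamine genes, long tied to aggression in flies, moved little: ple, the tyrosine hydroxylase of dopamine synthesis, was at 7.34 and 8.30 RPKM and then 6.38 and 6.75 RPKM (adjusted p = 0.580). The octopamine receptor gene oa2 was at 2.53 and 2.53 RPKM and then 3.11 and 3.38 RPKM (adjusted p = 0.524).

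None of 25 ecdysone and juvenile hormone genes or 13 sex-determination and dosage compensation genes passed. Of the 25, both 25C libraries were higher in 3 (12%, beside 26.1% over all genes) and lower in 6 (24%, beside 15.6%). Of the 13, 3 were higher (23.1%) and 2 lower (15.4%), near the shares over all genes. The sex-determination transcription factor dsx was at 2.69 and 2.65 RPKM at 19C and 1.42 and 1.75 RPKM at 25C (log2 -0.61, SE 0.11, adjusted p = 0.4996), while its partner ix was at 1.77 and 1.81 RPKM and then 2.40 and 2.81 RPKM (adjusted p = 0.524). Kr-h1, a transcription factor induced by juvenile hormone, was at 6.78 and 6.38 RPKM and then 4.93 and 5.05 RPKM (adjusted p = 0.4996), and the juvenile hormone esterase gene Jhe at 1.77 and 1.82 RPKM and then 1.496 and 1.170 RPKM (adjusted p = 0.562). Cytochrome P450 genes, which act on hormones and toxins, were lower in both 25C libraries in 16 of 59 (27.1%, beside 15.6% over all genes) and higher in 2 (3.39%, beside 26.1%). Their median was -0.10, but 0.02 without 25C b, -0.22 without 25C a and -0.05 without 19C b. Of these genes Cyp18a1, which inactivates the moulting hormone ecdysone, was at 1.74 and 1.52 RPKM and then 1.06 and 1.27 RPKM (adjusted p = 0.546). In the reference annotation dsx overlaps lds on the opposite strand, as fit does CG31465, tobi rha and Hsp83 CG14966. These 4 neighbours were at 1.68 RPKM or less in Bully. Other named genes also overlap a gene on the opposite strand, among them ninaA, rtp, RpL24, His3.3A and whd. The levels of their neighbours are not given here. Whether counting used strand is not given in the sources used here.

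**Figure D3:**
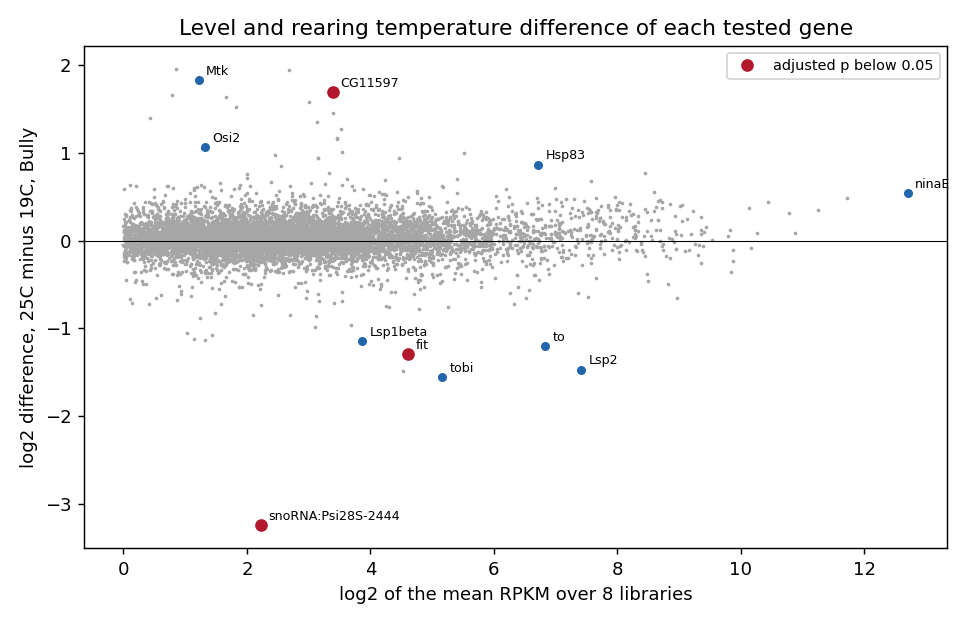
Each grey point is 1 of the 8480 genes tested; the horizontal axis is the log2 of its mean RPKM over 8 libraries and the vertical axis its difference in Bully, 25C minus 19C. The 3 genes that passed are red and other genes named in the text are blue; most genes lie near 0, with a median absolute difference of 0.10.

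The temperature differences of Bully were then set beside those of CantonS. No gene passed in the limma test of the difference between the responses (0.00%), 2018 had an unadjusted p below 0.05 (23.8%), and 280 had an adjusted p below 0.1. In CantonS alone, within the same fit, 544 genes passed (6.42%). Across the 8480 genes, which are not independent, the differences of the lines correlated at -0.24 (Pearson) and -0.34 (Spearman). The lines share no library. In CantonS 1496 genes were higher in both 25C libraries (17.6%) and 3211 lower (37.9%), and the CantonS median over all genes was -0.11 as deposited and 0.01 after median-of-ratios rescaling.

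The sign in CantonS was counted for the genes with the smallest p in Bully. CantonS values were taken as deposited, with a median of -0.11 over all genes, so negative signs were the more common there. Of the 246 genes lower at an unadjusted p below 0.05, 166 were also lower in CantonS (67.5%, beside 48.8% of all genes with a negative difference). Of the 483 higher, 51 were also higher in CantonS (10.6%, beside 27.3% of all genes with a positive difference). Beyond a log2 difference of 0.5, 129 genes did not overlap between the temperatures in Bully, and 21 of them did so in CantonS as well, in the same direction and beyond the same size. Of the 21, 17 were lower and 4 higher, and 36 further genes were parted in opposite directions. Over all genes tested, without the size cutoff, 37.9% were lower and 17.6% higher in both CantonS 25C libraries.

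The 17 shared lower genes included the fat body genes tobi, Lsp2, Lsp1beta and Obp99b. They also included Pepck and CG10924, the pair of phosphoenolpyruvate carboxykinase genes, with -0.64 and -1.12 in Bully and -0.90 and -0.57 in CantonS. LKR, which breaks down lysine, was at -0.73 in Bully and -0.66 in CantonS, and CG10621 at -0.56 and -1.81. The metallothionein MtnD, which binds metals, was at -0.88 and -1.36, but in Bully it was far below the other 3 libraries in 25C b alone, at 1.88, 1.83, 1.55 and 0.30 RPKM (-0.20 without that library). The Bully value of CG10621 was -0.29 without 19C a and -0.33 without 25C b, and that of Pepck -0.36 without 19C a. That of CG8066, also among the 17, was -0.02 without 19C b. The 4 shared higher genes were Hsp83 (0.86 and 0.90), Eip71CD (0.71 and 0.68), the small RNA in Mur2B (1.05 and 1.17) and CG4250 (0.56 and 0.55).

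**Figure D4:**
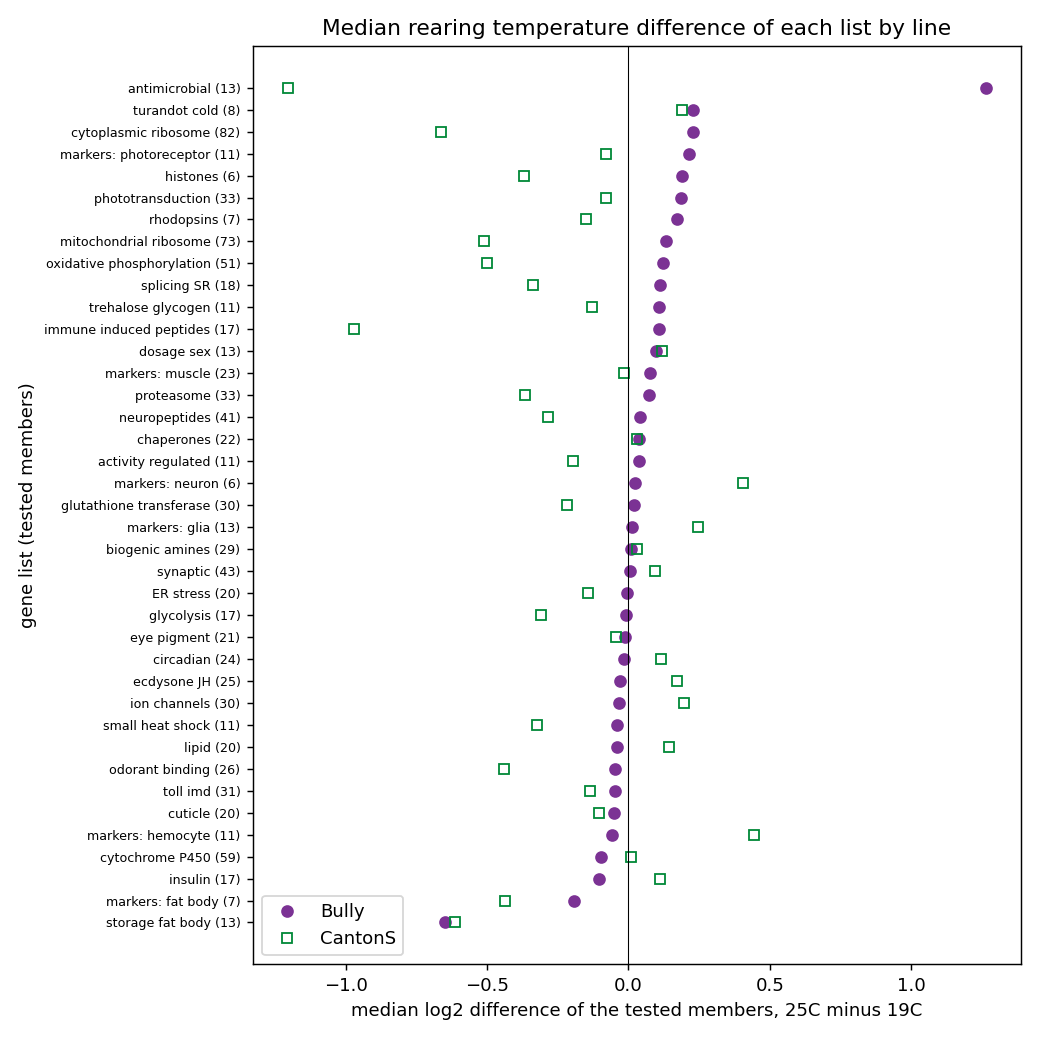
Median difference, 25C minus 19C on the log2 scale, of the tested members of each list with at least 5 of them, with Bully as filled circles and CantonS as open squares. The storage and fat body list is low in both lines (-0.65 and -0.62), while the cytoplasmic ribosome, oxidative phosphorylation and antimicrobial lists lie on opposite sides of 0; the antimicrobial median in Bully rests on library 25C a.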

How the data were processed

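Per the submitters' processing notes, the tools named are TopHat2 2.0.4 and edgeR 3.8.6 and the builds dm3 and BDGP5. The authors deposited RPKM per gene (15240 genes, 8 libraries); whether library sizes were rescaled, and whether counting used strand, is not given in the sources used here. Total RNA came from pooled heads. Effective library sizes were recovered from the steps between low values of single-transcript genes, of which 71.4% to 73.7% were whole reads within 0.01 of a read. In Bully, 3 reads in 1 kb of exon corresponded to 0.0261 to 0.0376 RPKM.

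The 4 Bully libraries were fitted with limma 3.58.1 (R 4.3.3), as group means with eBayes and a mean-variance trend, on log2(RPKM + 0.5), for genes averaging 1 RPKM or more across all 8 libraries. Residual degrees of freedom were 2 and the prior added 3.81. The difference between lines used all 8 libraries. With 2 against 2 an exact permutation test of a single value cannot go below p = 0.333, so none is given. Named genes were the 5 smallest p in each direction, since fewer than 5 passed, and up to 4 members per described list by test statistic, with all rhodopsins, Ilp and small heat shock genes allowed; others are named as chosen after seeing values, including genes set beside a named gene, shared between lines or given as levels of a list. The members and the 44 lists (1225 of 1246 symbols matched) were chosen with earlier results of these data known. Overlaps, biotypes and chromosome arms came from the Ensembl BDGP6 annotation, matched by symbol; no coordinates are given because the builds differ. The script was tested on simulated data. Alternatives were other pseudocounts, filters, scalings, a length correction, other priors and thresholds, and leaving out each library.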

Additional observations from a re-analysis of the deposited data

How the results depend on the processing

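Of the 3 genes called between the temperatures in Bully, 1 was called with a pseudocount of 0.1, 0 without the filter on low values, 0 with the length trend of each library removed, 5 with a robust prior and 5 at an adjusted p below 0.1. With the length trend removed, CG11597, snoRNA:Psi28S-2444 and fit narrowly missed the threshold (adjusted p = 0.0504, 0.0504 and 0.0535). With the spread from all 8 libraries 2 genes were called, Lsp1beta and tobi, and none of the 3. The other alternatives (pseudocount 1, filter at 5 RPKM, both rescalings, no variance trend and a 2-fold minimum) each called 3. Leaving out 1 Bully library gave 3 to 62 calls, 4 without 19C a, 3 without 19C b, 62 without 25C a and 36 without 25C b. For the difference between the lines' responses, 0 genes were called, 1 without the filter and 280 at an adjusted p below 0.1; leaving out 1 library gave 0 to 903, 903 when CantonS 19C a was left out, 466 for CantonS 25C b and 5 for Bully 25C b. The causes were not tested. Over 1117 values of 71 named genes under the alternatives, none changed direction, 1079 stayed on the same side of the threshold, 13 lost it and 25 gained it. Most of these genes were named for a small p or a large statistic in the same comparison, and only 3 passed in the main fit. Where the groups did not overlap, leaving out 1 library could not reverse a direction. These counts therefore do not measure robustness. No paired analysis was possible because the columns of the deposited table carry no replicate number. With 2 libraries a group, effective sizes of 79.9 to 114.8 M reads, as inferred, would not limit the comparison of abundant genes. Genes below 1 RPKM and small RNAs rest on few reads.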

Other observations

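Listed muscle genes were mostly even between the temperatures in Bully. Both 25C libraries were higher in 6 of 23 (26.1%, beside 26.1% over all genes) and lower in 0 (beside 15.6%). Act79B, an actin of tubular muscle, was at 18.0 and 17.7 RPKM at 19C and 23.5 and 28.6 RPKM at 25C (adjusted p = 0.4996). The glial transporter gene Eaat2 was at 55.2 and 53.6 RPKM and then 65.55 and 68.72 RPKM (adjusted p = 0.530). Of 18 genes of SR splicing factors and their partners, 6 were higher (33.3%, beside 26.1% over all genes) and 0 lower (beside 15.6%), with a median of 0.11. The stress noncoding RNA Hsromega was at 26.8 and 27.8 RPKM and then 28.6 and 37.4 RPKM in Bully, while in CantonS it was lower at 25C (-0.97, adjusted p = 0.0429).

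Library 25C b was at least 1 log2 unit above the other Bully libraries in 12 genes, and the most abundant of them were CG11368, at 307, 343, 237 and 740 RPKM in the order 19C a, 19C b, 25C a and 25C b, and CG17108, at 324, 338, 274 and 693 RPKM. Listericin, an immune-induced gene, was at 23.4, 30.7, 24.3 and 63.3 RPKM in that order. In 19C b, CG8066 was at 29.5 RPKM against 7.56 to 7.74 RPKM in the other 3. These genes were chosen after their values were seen.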
